A study of Mus musculus with 16 samples.

Results

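Livers with ARID1A and ARID1B deleted together were compared with livers of the same floxed genotype that carried no Cre. The double knockout (DKO) group held 4 whole-liver mRNA libraries homozygous for floxed ARID1A (f/f) and floxed ARID1B (f/f) with Alb-Cre+, tagged DKO-7068, DKO-7070, DKO-7112 and DKO-7137. The control group held 4 libraries of the same floxed alleles with Alb-Cre-, tagged WT-7067, WT-7069, WT-7114 and WT-7139. These 8 of the 16 libraries of the series share 1 count table and were chosen by genotype; the labels give neither age nor sex. All 4 DKO livers and no control carried Cre recombinase, so an effect of Cre itself cannot be told apart from the loss of both genes. The albumin promoter drives Cre in hepatocytes, and in some bile duct cells through their shared precursors, while stellate, endothelial and immune cells keep their intact floxed alleles.

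ARID1A and ARID1B are alternative DNA-binding subunits of the BAF (SWI/SNF) complex, a chromatin remodeller that uses ATP to slide and eject nucleosomes. A canonical BAF complex contains one or the other, and cells that lack both cannot form it, while the PBAF and non-canonical BAF complexes use other subunits in that place. In hepatocytes BAF is known for keeping enhancers accessible to lineage factors such as HNF4A and CEBPA. The comparison asks what the liver transcriptome looks like when both paralogs are removed from hepatocytes.

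Of the 24421 genes in the table, 12848 passed the count filter and were tested with edgeR's quasi-likelihood test. At a Benjamini-Hochberg adjusted p under 0.05, 2467 genes (19.2%) were higher in DKO liver and 2137 (16.6%) were lower, together 35.8% of the tested genes. A change of at least 2-fold was more often an increase: 1433 genes (11.2%) were higher by that much and 703 (5.47%) lower. The levels of the groups did not overlap for 4552 genes (35.4%). These shares of all tested genes are the background for every list count below. Without adjustment for composition, scaling to library totals alone, the split was 3266 higher and 1269 lower and the median log2 fold change of all genes moved from 0.02 to 0.20, so the changes below are relative to the bulk of genes (trimmed mean of M-values scaling, TMM).

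Total counts ran from 8699417 to 11031443 per library, and the first principal component, 68.9% of the variance, separated the groups. DKO-7112 stood apart from the other DKO livers on the second component (8.02%), and DKO-7068 and DKO-7070 were the pair most alike (dispersion 0.0145 against 0.0447 to 0.0662 for the other DKO pairs). Tags near each other went together across genotype: the deviations from the group means correlated at r = 0.26 between DKO-7137 and WT-7139, 0.17 between DKO-7112 and WT-7114, 0.14 between DKO-7068 and WT-7067 and 0.10 between DKO-7070 and WT-7069, across genes, which are not independent replicates. Each such set of tags holds DKO and control livers in equal number. Levels are CPM (reads of a gene scaled to the library's effective total) after TMM scaling, always listed in the order DKO-7068, DKO-7070, DKO-7112 and DKO-7137, then WT-7067, WT-7069, WT-7114 and WT-7139. Means are given ± SD with n = 4 livers a group, log2 fold changes are DKO minus control, each with its standard error. Nothing in the labels says more on the animals than the tags, so p-values measure the spread between these libraries. In whole liver, fewer cells of a type and less RNA per cell cannot be told apart.

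Neither targeted gene was at background in DKO liver. Arid1a (chr4:133679008-133756769) stood at 110.3, 99.6, 106 and 114 CPM in the DKO livers and 128, 112, 136 and 118 CPM in the controls. The DKO livers overlapped the controls, with the difference not passing the test (log2 fold change -0.20, standard error 0.10, edgeR adjusted p = 0.149). Arid1b (chr17:4994332-5347656) stood at 55.4, 61.4, 78.0 and 45.4 CPM in the DKO livers and 80.7, 82.003, 97.1 and 97.3 CPM in the controls, with every DKO liver below every control (log2 fold change -0.57, standard error 0.16, edgeR adjusted p = 0.0167). The Arid1b call was lost under scaling to library totals (log2 fold change -0.39, adjusted p = 0.091) and without DKO-7068 (-0.54, adjusted p = 0.0515). The counts are per whole gene, and reads from exons outside the floxed ones, and from cells without Cre, are counted as well, so these levels are not a measure of the deletion.

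Among the other chromatin genes, the alternative BAF ATPase gene Smarca2 was 2.52-fold lower, while the partner ATPase gene Smarca4 did not pass the test. Smarca2 stood at 101, 117, 105 and 76.0 CPM in the DKO livers and 261, 274, 252 and 218 CPM in the controls, without overlap (log2 fold change -1.33, standard error 0.15, edgeR adjusted p = 0.000103). Smarca4 stood at 111, 110.0, 99.97 and 124 CPM in the DKO livers and 83.5, 81.1, 103 and 118 CPM in the controls, with ranges that overlapped (log2 fold change 0.21, standard error 0.14, edgeR adjusted p = 0.275). Of 28 tested BAF, PBAF and ncBAF subunit genes, 2 rose, 4 fell and 22 passed in neither direction, against 19.2% and 16.6% of all genes. The list's median log2 fold change was -0.06, and 0.12 with library totals, where 2 members fell.

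Polycomb complexes, which place repressive marks on histones and are known as antagonists of BAF, had shares of calls near those of all genes: of 30 tested subunit genes 7 rose (23.3%, against 19.2%) and 5 fell (16.7%, against 16.6%). Bmi1, a partner of the catalytic subunit of Polycomb repressive complex 1, stood at 61.5, 48.9, 55.9 and 53.9 CPM in the DKO livers and 20.6, 23.8, 24.7 and 20.4 CPM in the controls, with no overlap (log2 fold change 1.30, standard error 0.11, edgeR adjusted p = 2.31e-05). Kdm2b, which recruits a variant form of Polycomb repressive complex 1 to CpG islands, was 2.22-fold higher (28.9 ± 5.18 against 12.97 ± 2.51 CPM, edgeR adjusted p = 0.000664). Cbx7, a reader of the methylated histone, was 4.55-fold lower (2.04 ± 1.09 against 9.28 ± 2.66 CPM; edgeR adjusted p = 0.000774). Ezh2, the methyltransferase of Polycomb repressive complex 2, stood at 14.9, 11.5, 6.95 and 11.7 CPM in the DKO livers and 7.05, 6.21, 6.73 and 5.93 CPM in the controls, and its call (edgeR adjusted p = 0.0156) was lost without DKO-7068 (adjusted p = 0.0525). Leaving out DKO-7112 or DKO-7068 took the risers to 4 and 3 and leaving out DKO-7137 or WT-7067 took the fallers to 3. Without WT-7069 4 rose.

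Fetal imprinted genes were among the largest increases in the transcriptome. H19 (chr7:142575529-142578143), a noncoding RNA of fetal liver that is silenced after birth, stood at 3789, 2701, 749.6 and 3630.0 CPM in the DKO livers and 1.01, 2.1002, 1.35 and 5.30 CPM in the controls. Igf2 (chr7:142650766-142666816), the fetal growth factor gene beside it on chromosome 7, stood at 914, 728, 35.7 and 638 CPM in the DKO livers and 0.672, 0.573, 0.785 and 1.26 CPM in the controls. Both were scarce in every control and abundant in the DKO livers, with DKO-7112 the lowest DKO liver for each. H19 was 1114-fold higher and Igf2 703-fold higher (edgeR adjusted p = 6.22e-05 and 0.000616); the H19 ratio was 1830.2-fold without WT-7139. Of 21 tested imprinted genes 8 rose and 2 fell, at a median log2 fold change of 0.58. Peg10, a retrotransposon-derived gene of placenta and liver tumours, rose from 1.79, 1.24, 1.46 and 3.28 CPM to 9.20, 6.12, 25.9 and 13.3 CPM (log2 fold change 2.82, edgeR adjusted p = 0.00243). Grb10, an adaptor that restrains insulin and IGF1 receptors, was 3.51-fold higher (41.1 ± 3.74 against 11.7 ± 2.88 CPM; edgeR adjusted p = 3.37e-05).

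Several of the strongest increases were genes with almost no reads in control liver. Wif1 (chr10:121033960-121100650), a secreted inhibitor of Wnt ligands, had no read in any control and stood at 43.9, 32.9, 22.8 and 23.8 CPM in DKO liver. It was at least 373-fold higher against a floor of 3 counts over the control group. Tff3, a trefoil peptide of mucus-secreting epithelium, stood at 143, 101, 321 and 244 CPM in the DKO livers and 0.224, 0.191, 0 and 0.252 CPM in the controls. Cdhr2, a protocadherin of the intestinal brush border, stood at 134, 108, 109 and 168 CPM in the DKO livers and 0, 0, 0.561 and 0.505 CPM in the controls. All 4 DKO livers were far above all controls for these 3 genes, with edgeR adjusted p = 2.79e-05, 1.5e-05 and 4.25e-06. A lack of overlap between the groups was a condition for their choice. Krt20, an intestinal and urothelial keratin, stood at 33.3, 25.7, 6.73 and 44.04 CPM in the DKO livers and 0.112, 0, 0.112 and 0 CPM in the controls, the controls holding 1 read or none each, so no fold is given (edgeR adjusted p = 0.00025). Dusp9, a phosphatase of MAP kinases, stood at 23.2, 15.3, 2.39 and 21.7 CPM in the DKO livers and 0.224, 0, 0.224 and 0 CPM in the controls, without overlap (log2 fold change 6.99, standard error 1.01, edgeR adjusted p = 0.00107), and was 139.6-fold higher, or 209.6-fold without WT-7114. In total 7 called genes had no read in any control: Bex1, Rbm24, Scel, Serpina1f, Slc7a11, Sprr1a and Wif1. Slc7a11, the cystine importer gene, stood at 1.31, 1.08, 2.82 and 1.45 CPM in DKO liver.

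The strongest decreases included enzymes and a transporter of hepatocytes. Ces1f (chr8:93256236-93279747), a carboxylesterase, stood at 0.575, 0.810, 0.217 and 0.414 CPM in the DKO livers and 245, 212, 239 and 261 CPM in the controls, 475-fold lower (edgeR adjusted p = 2.19e-08). Sult3a1 (chr10:33857721-33879532), a sulfotransferase of female liver, had no read in any DKO liver and stood at 25.0, 56.4, 39.04 and 52.1 CPM in control liver (edgeR adjusted p = 7.83e-05). Against a floor of 3 counts over the DKO group it was at least 606-fold lower. It was the only called gene with no read in DKO liver and reads in the controls. Slc1a2, a glutamate transporter of perivenous hepatocytes, stood at 1.81, 2.07, 5.97 and 10.8 CPM in the DKO livers and 312, 492, 281 and 323 CPM in the controls, 68.3-fold lower and 107-fold without DKO-7137 (edgeR adjusted p = 0.000163). Thrsp, a nuclear protein induced with lipogenesis, stood at 26.4, 6.21, 12.4 and 9.95 CPM in the DKO livers and 1651, 628, 618 and 815 CPM in the controls (edgeR adjusted p = 0.00014). None of the 4 genes overlapped between the groups, which was a condition for their choice.

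**Figure D1:**
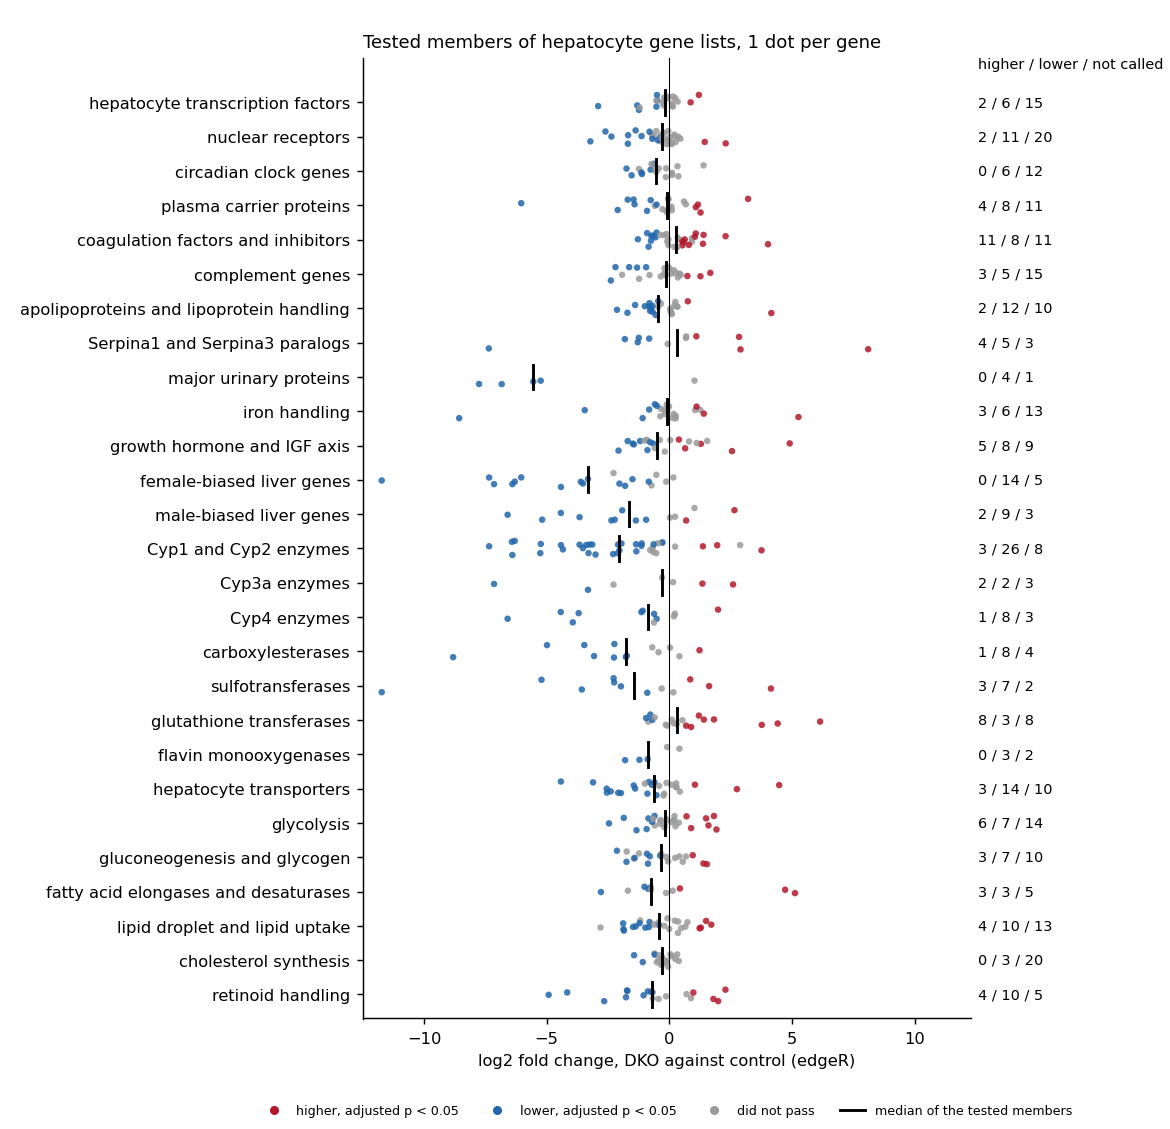
Log2 fold change (horizontal axis, DKO against control, edgeR) of each tested member of the hepatocyte gene lists, with 1 list a row, 1 dot a gene coloured by its call, and a black bar at the list's median. The major urinary, female-biased and Cyp1 and Cyp2 rows lie furthest to the left, at medians of -5.55, -3.32 and -2.03.

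Some hepatocyte transcription factors fell, while the classical regulators of hepatocyte identity did not move as a block. Tbx3, a factor of hepatoblasts and pericentral cells, stood at 5.09, 5.85, 5.32 and 4.46 CPM in the DKO livers and 34.9, 37.6, 51.4 and 31.3 CPM in the controls, without overlap (log2 fold change -2.90, standard error 0.18, edgeR adjusted p = 3.55e-06). Cebpa, a regulator of metabolic genes, stood at 131, 174, 224 and 82.4 CPM in the DKO livers and 346, 375, 406 and 315 CPM in the controls, again with every DKO liver below every control (log2 fold change -1.24, standard error 0.26, edgeR adjusted p = 0.0047). Prox1, a homeobox factor of hepatoblast migration, was 2.47-fold lower (99.3 ± 35.7 against 246 ± 38.98 CPM; edgeR adjusted p = 0.00385). Hnf4a, in contrast, stood at 762, 739, 913 and 952 CPM in the DKO livers and 995, 1333, 743 and 758 CPM in the controls, with overlapping ranges (log2 fold change -0.19, standard error 0.21, edgeR adjusted p = 0.519). Foxa2, Foxa3 and Onecut1 did not pass the test, at log2 fold changes of -0.23, -0.04 and -0.08, and the signs of the Hnf4a, Foxa3 and Onecut1 values depended on the setting. Of 23 tested factors 2 rose, the endoderm factor Gata6 (log2 fold change 0.87) and the stress-linked Atf5 (1.20), and 6 fell. Those shares were 8.70% and 26.1%, against 19.2% and 16.6% of all genes.

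Nuclear receptors, the ligand-sensing regulators of hepatic metabolism, fell more often than they rose, with 11 of 33 lower and 2 higher. These shares of 33.3% and 6.06% compare with 16.6% and 19.2% of all genes. Under library totals 7 fell, a setting where 1269 of all genes fell against 2137 in the main fit. Esr1, the estrogen receptor, stood at 25.0, 27.7, 40.8 and 29.7 CPM in the DKO livers and 169, 189, 102 and 173 CPM in the controls, without overlap (log2 fold change -2.36, standard error 0.22, edgeR adjusted p = 4.42e-05). Nr1h4 (FXR, the bile acid receptor) fell from 147, 176, 157 and 150.8 CPM to 50.0, 61.5, 85.5 and 46.2 CPM (log2 fold change -1.37, edgeR adjusted p = 0.00029). Nr1i3 (CAR, a xenobiotic receptor) was 3.24-fold lower (44.6 ± 16.7 against 144 ± 36.2 CPM; edgeR adjusted p = 0.00161), and its relative Nr1i2 (PXR) stood at 96.5 ± 8.16 against 95.2 ± 14.2 CPM without a call (edgeR adjusted p = 0.922). The early response receptor Nr4a1 rose, at 4.93, 4.68, 3.47 and 13.1 CPM in the DKO livers and 0.784, 1.81, 1.12 and 1.51 CPM in the controls, with DKO-7137 the highest (edgeR adjusted p = 0.00373). Ppara, the receptor for fatty acids, did not pass (log2 fold change -0.71, standard error 0.28, edgeR adjusted p = 0.0758).

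Of 18 circadian clock genes 6 fell, among them Bhlhe40, Hlf, Per1, Ciart and Per2, and none rose. Hlf, an output factor of the clock, stood at 49.6, 45.5, 30.1 and 20.1 CPM in the DKO livers and 117, 95.7, 131 and 80.5 CPM in the controls (log2 fold change -1.54, standard error 0.28, edgeR adjusted p = 0.00257), with no DKO liver in the control range. Core clock genes moved with the tags. Arntl, which encodes BMAL1, stood at 11.7, 6.30, 3.26 and 46.8 CPM in the DKO livers and 5.37, 5.44, 1.57 and 42.3 CPM in the controls, and Dbp, whose transcript peaks in the opposite phase, at 21.7, 37.2, 59.9 and 2.80 CPM in the DKO livers and 27.8, 25.5, 74.6 and 6.06 CPM in the controls. DKO-7137 and WT-7139 had the highest Arntl and lowest Dbp of their groups, and DKO-7112 and WT-7114 the lowest Arntl and highest Dbp. Nr1d1 ran with Dbp, at 12.2, 20.4, 71.7 and 8.70 CPM in the DKO livers and 18.03, 15.1, 48.3 and 5.55 CPM in the controls. With the 3 tag sets as a covariate 10 clock genes fell and 1 rose; the same fit gave 2773 higher and 2459 lower over all genes. With neighbouring tags paired 10 fell and 1 rose. The labels give no time of collection.

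Plasma carrier genes fell more often than they rose. Albumin (Alb), the main plasma protein, took 3.76% to 6.38% of all counts in DKO livers and 8.62% to 9.94% in controls, a difference with a two-sided exact permutation p of 0.0286, the smallest that 4 against 4 livers allow. DKO-7112 had the lowest share. The fit gave the same direction (log2 fold change -0.91, standard error 0.21, edgeR adjusted p = 0.00738). Transthyretin (Ttr), a carrier of thyroid hormone and retinol-binding protein, fell from 4922, 4348, 4809.6 and 4963 CPM to 3123, 2906, 2512 and 2698 CPM (log2 fold change -0.76, edgeR adjusted p = 0.00291). The carriers of glucocorticoids and thyroxine went opposite ways: Serpina6 was 4.31-fold lower (89.4 ± 19.7 against 385 ± 69.4 CPM) and Serpina7 9.34-fold higher (50.3 ± 13.7 against 5.39 ± 2.57 CPM), with edgeR adjusted p = 3.18e-05 and 0.000203. Of 23 tested carrier genes 4 rose and 8 fell (17.4% and 34.8%, against 19.2% and 16.6% of all genes).

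Coagulation genes had more increases than decreases, and the list moved with 1 liver. Of 30 tested, 11 rose and 8 fell (36.7% and 26.7%, against 19.2% and 16.6% of all genes), at a median of 0.26. Without DKO-7112, 8 rose and 9 fell, at -0.03. Serpina10, an inhibitor of activated factor X, stood at 359.8, 344, 527 and 478 CPM in the DKO livers and 139, 178, 170.1 and 163.02 CPM in the controls, without overlap (log2 fold change 1.39, standard error 0.17, edgeR adjusted p = 0.00017). Kng1, the kininogen gene, was 2.11-fold higher (3391 ± 723 against 1608 ± 86.8 CPM; edgeR adjusted p = 0.00103). Factor V (F5) and protein C (Proc) fell by -0.85 and -0.91 on the log2 scale (edgeR adjusted p = 0.00183 and 0.000685). Prothrombin (F2), plasminogen (Plg) and antithrombin (Serpinc1) did not pass, at log2 fold changes of -0.09, -0.04 and -0.36, the first 2 changing sign with the setting.

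In the complement list 3 of 23 rose and 5 fell, and 9 fell without DKO-7112. The shares of 13.04% and 21.7% lie near the 19.2% and 16.6% of all genes. Mbl2, a mannose-binding lectin, stood at 52.5, 59.02, 77.8 and 52.3 CPM in the DKO livers and 313, 328, 324 and 296 CPM in the controls, well apart (log2 fold change -2.38, standard error 0.15, edgeR adjusted p = 3.89e-06). C8g, a subunit of the terminal complex, was 4.58-fold lower and Hc, which encodes C5, 2.41-fold higher (edgeR adjusted p = 2.14e-05 and 0.00029). C9, another terminal component, stood at 5.26, 14.8, 181 and 14.2 CPM in the DKO livers and 178, 207, 205 and 226 CPM in the controls. DKO-7112 was inside the control range, the other 3 DKO livers were far below it, and the gene did not pass (edgeR adjusted p = 0.182).

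Apolipoprotein genes fell more often than they rose (12 and 2 of 24, median -0.45). Apoc3, which slows clearance of triglyceride-rich particles, stood at 238, 160.4, 384 and 292 CPM in the DKO livers and 1273, 1026, 1238 and 1184 CPM in the controls, without overlap (log2 fold change -2.14, standard error 0.24, edgeR adjusted p = 0.000124). Apoc4 was 3.27-fold lower (66.6 ± 10.2 against 218 ± 20.3 CPM; edgeR adjusted p = 1.59e-05). Apob, the structural protein of VLDL, did not pass, at 19793 ± 725 against 16135 ± 996 CPM (edgeR adjusted p = 0.166). Lpl, the lipase of muscle and fat that adult hepatocytes scarcely make, rose from 19.03, 15.2, 23.3 and 8.71 CPM to 274, 266, 312 and 332 CPM, 17.9-fold higher (edgeR adjusted p = 6.88e-06).

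Hepcidin, the peptide that blocks iron export, has 2 gene copies in the mouse. Hamp (chr7:30942368-30944032) and Hamp2 (chr7:30922372-30924681) lie close together on chromosome 7. Their promoters are shown because both genes fell and the copies differ in a well-known element: these are the 250 bases before each transcript start from RefSeq (GRCm38.p6, minus strand, chr7:30944030-30944279 and chr7:30924182-30924431), with matches to GGCGCC, a core of the BMP-response element, and to TTCNNNGAA, the STAT motif, in capitals.
Hamp: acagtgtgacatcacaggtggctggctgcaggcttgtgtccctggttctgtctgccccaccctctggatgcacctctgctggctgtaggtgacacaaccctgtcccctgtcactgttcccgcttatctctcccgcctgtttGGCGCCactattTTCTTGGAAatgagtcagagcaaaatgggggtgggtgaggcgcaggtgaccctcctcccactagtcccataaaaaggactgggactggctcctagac
Hamp2: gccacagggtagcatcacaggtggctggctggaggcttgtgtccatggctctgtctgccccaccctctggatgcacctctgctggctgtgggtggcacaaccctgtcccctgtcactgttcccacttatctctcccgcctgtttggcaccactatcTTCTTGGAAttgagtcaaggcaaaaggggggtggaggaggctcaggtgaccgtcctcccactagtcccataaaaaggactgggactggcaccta
Aligned without gaps, the windows match at 227 of the 247 bases that lie in both (91.9%). Searched on both strands, GGCGCC occurs in Hamp only, between 109 and 104 bases before the start, and TTCTTGGAA occurs in both. Of all 32851 RefSeq windows of this length, 9.59% hold GGCGCC and 7.02% hold TTCNNNGAA. A match here is a string of letters and not a measured binding site.

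Hamp stood at 62.2, 94.3, 5.75 and 105 CPM in the DKO livers and 989.9, 999, 312 and 622 CPM in the controls, and Hamp2 at 0.575, 1.17, 0 and 1.97 CPM in the DKO livers and 685, 172, 300.9 and 267 CPM in the controls. All DKO livers were below all controls for both, DKO-7112 being the lowest. Hamp was 10.9-fold lower (edgeR adjusted p = 0.0125) and Hamp2 384-fold lower (edgeR adjusted p = 0.000135), the latter 613-fold without DKO-7137. Tmprss6, a protease that dampens BMP signalling to hepcidin, was 2.13-fold lower (edgeR adjusted p = 0.000796), and Hmox1, which releases iron from heme, 2.16-fold higher (edgeR adjusted p = 0.000496). Of 22 iron genes 3 rose and 6 fell (13.6% and 27.3%, against 19.2% and 16.6% of all genes). The median was -0.09, or 0.07 with library totals.

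The alpha-1-antitrypsin cluster on chromosome 12 showed near-identical genes with different outcomes. Serpina1b stood at 2828, 2529, 3032 and 3734 CPM in the DKO livers and 3031, 3041, 2936 and 3701 CPM in the controls, with overlapping groups (log2 fold change -0.07, standard error 0.17, edgeR adjusted p = 0.792). Serpina1e stood at 5.09, 11.2, 14.2 and 5.39 CPM in the DKO livers and 294, 2256, 158 and 3183 CPM in the controls. Its controls ranged widely, and all were above all DKO livers (log2 fold change -7.36, standard error 1.20, edgeR adjusted p = 0.00232); the fold was 164-fold lower, and 100.5-fold without WT-7139. The call was lost in WT-7067, WT-7069, DKO-7068 and DKO-7070 alone (adjusted p = 0.0561). A stretch of 120 bases before the starts of both genes (RefSeq, GRCm38.p6, minus strand, chr12:103738190-103738309 and chr12:103956950-103957069) is shown because it differs at 3 bases only, written in capitals:
Serpina1b: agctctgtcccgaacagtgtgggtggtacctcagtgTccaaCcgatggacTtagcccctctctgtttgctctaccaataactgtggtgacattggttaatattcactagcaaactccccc
Serpina1e: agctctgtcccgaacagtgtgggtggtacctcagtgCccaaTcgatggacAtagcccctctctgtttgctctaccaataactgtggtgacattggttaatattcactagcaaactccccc
Compared with Serpina1b the stretch is 97.5% identical in Serpina1c, 96.7% in Serpina1a and 93.3% in Serpina1d. Serpina1c was 3.52-fold lower and Serpina1a 2.37-fold lower (edgeR adjusted p = 0.000278 and 0.00194). Serpina1f had no read in the controls and stood at 1.97, 2.61, 4.56 and 4.97 CPM in DKO livers. Serpina3n, an acute-phase antiprotease, rose from 412, 470.1, 436 and 550.4 CPM to 2381, 2214, 3472 and 5886 CPM (edgeR adjusted p = 9.26e-05). Of 12 tested paralogs 4 rose and 5 fell. Reads that match several copies limit these values: Gapdh, a gene with many processed copies, was listed at only 3.69 ± 2.32 against 3.19 ± 1.06 CPM, and the sources used here do not say how shared reads were counted.

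**Figure D2:**
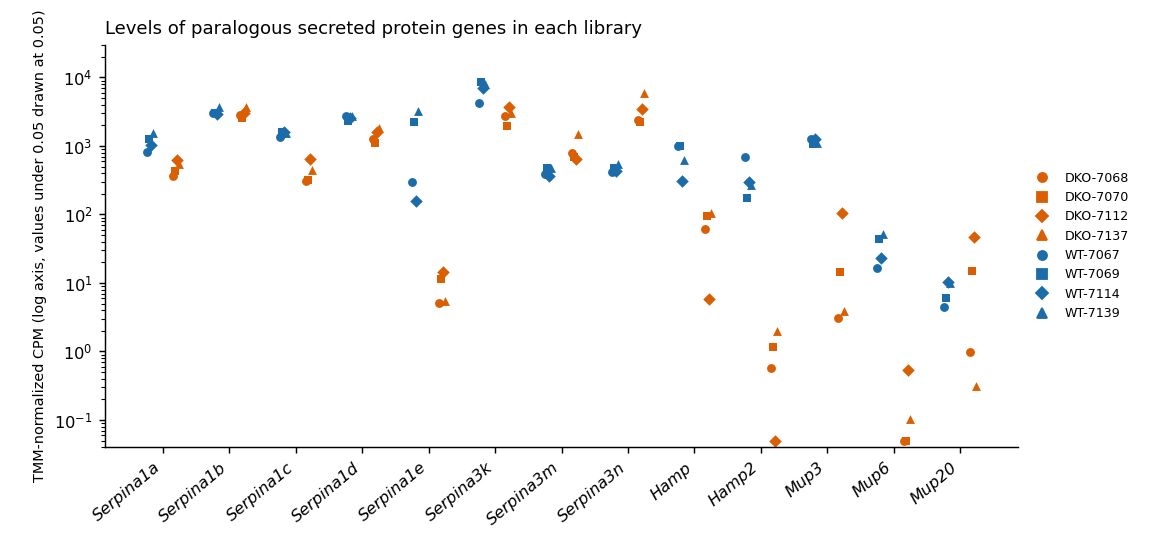
Level (TMM-normalized CPM, log axis) of 13 genes of paralogous secreted protein families, with 1 point per library, DKO in orange and controls in blue, and values near 0 drawn at the lower edge. Serpina1e and Hamp2 have wide gaps between the groups, while Serpina1b overlaps.

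Genes under growth hormone control form the next block. Growth hormone acts on hepatocytes through its receptor, JAK2 and STAT5, and its pulse pattern sets which genes are higher in male or female liver. Ghr, the receptor gene, stood at 207, 219, 242 and 172 CPM in the DKO livers and 617, 598, 576 and 571 CPM in the controls, and Igf1, its main secreted target, at 509.9, 509, 547 and 556 CPM in the DKO livers and 1033, 1479, 1195 and 1144 CPM in the controls. Every DKO liver was below every control for both genes, which were 2.82-fold lower and 2.29-fold lower (edgeR adjusted p = 3.36e-05 and 0.000214). Prlr, the prolactin receptor gene, was 4.20-fold lower, and Igfals, which stabilises circulating IGF1, 3.25-fold lower (edgeR adjusted p = 9.24e-05 and 0.000585). Igfbp7 rose (164 ± 26.8 against 67.3 ± 10.1 CPM; edgeR adjusted p = 0.000149). Of 22 genes of the axis 5 rose and 8 fell (22.7% and 36.4%, against 19.2% and 16.6% of all genes). Without WT-7067 or WT-7069 3 rose, and without WT-7114 2.

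All 8 livers expressed Xist, the X-inactivation transcript of female cells, at 1974 to 2700 CPM. Female-biased liver genes fell: 14 of 19 tested were lower and none higher, at a median log2 fold change of -3.32. Cyp2b13 stood at 0.328, 0.810, 0.217 and 0.622 CPM in the DKO livers and 126, 65.7, 78.4 and 62.0 CPM in the controls and was 168-fold lower (log2 fold change -7.35, standard error 0.38, edgeR adjusted p = 3.14e-06). Cyp2a4 stood at 7.64, 29.7, 6.62 and 6.53 CPM in the DKO livers and 1144, 1260.0, 908 and 689 CPM in the controls, with DKO-7070 above the other DKO livers and all far below the controls. It was 79.3-fold lower, and 144-fold without DKO-7070 (edgeR adjusted p = 0.000166). Cyp3a41a was at 1.15 CPM or less in DKO liver and 34.9, 54.2, 145 and 78.5 CPM in the controls (edgeR adjusted p = 0.000151). Male-biased genes were mostly lower too: 9 of 14 fell and 2 rose (Gstp1 and Selenbp2). Slco1a1, a transporter of steroid conjugates that is higher in males, stood at 9.20, 9.18, 18.7 and 14.7 CPM in the DKO livers and 164, 361, 243 and 337 CPM in the controls (log2 fold change -4.42, standard error 0.34, edgeR adjusted p = 2.86e-05), far apart between groups. Mup3, of the major urinary proteins that carry pheromones, stood at 3.12, 14.4, 103 and 3.94 CPM in the DKO livers and 1245, 1073, 1270.2 and 1111 CPM in the controls. It was 37.7-fold lower, and 164-fold without DKO-7112 (edgeR adjusted p = 0.0105). Of 5 tested Mup genes 4 fell; the Mup genes share long stretches of sequence and their single values are uncertain.

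Most families of xenobiotic enzymes had more decreases than increases. Of 37 tested Cyp1 and Cyp2 genes, the cytochromes that oxidise drugs, steroids and fatty acids, 26 fell and 3 rose, at a median of -2.03. Cyp2c50 stood at 67.0, 73.9, 64.3 and 66.3 CPM in the DKO livers and 625, 644, 650.3 and 748 CPM in the controls, with narrow ranges that did not overlap (log2 fold change -3.30, standard error 0.13, edgeR adjusted p = 3.63e-07). Cyp2a5, a coumarin hydroxylase, stood at 2.55, 7.11, 1.95 and 13.3 CPM in the DKO livers and 495, 606, 454 and 565 CPM in the controls and was 85.2-fold lower, or 137-fold without DKO-7137 (edgeR adjusted p = 0.000136). Cyp1b1, typical of extrahepatic and mesenchymal cells, rose from 1.12, 1.53, 0.337 and 0.757 CPM to 14.3, 15.7, 10.9 and 11.4 CPM (edgeR adjusted p = 2.2e-05). Carboxylesterases, which hydrolyse ester drugs and lipids, fell in 8 of 13 cases. Ces3a was 31.7-fold lower and Ces1b 11.1-fold lower, while Ces2a was 2.35-fold higher (edgeR adjusted p = 0.000435, 2.51e-06 and 0.000886). Sulfotransferases fell in 7 of 12 and rose in 3. Sult2a8, which sulfates bile acids, stood at 15.4, 19.2, 5.86 and 11.2 CPM in the DKO livers and 413, 487, 514 and 511 CPM in the controls (log2 fold change -5.21, standard error 0.34, edgeR adjusted p = 8.07e-06), all DKO livers being far below the controls.

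Glutathione transferases, which conjugate electrophiles, had more increases than decreases, with 8 of 19 higher and 3 lower (5 lower with neighbouring tags paired). Gstm3 stood at 888, 588, 539.7 and 1101 CPM in the DKO livers and 39.3, 24.9, 54.6 and 27.1 CPM in the controls (log2 fold change 4.42, standard error 0.34, edgeR adjusted p = 2.09e-05). Gsta1 rose from 0, 0.286, 0.112 and 0 CPM to 9.53, 10.3, 4.34 and 10.4 CPM (edgeR adjusted p = 3.59e-05). Gsta4 was 3.53-fold higher (edgeR adjusted p = 3.59e-05). Cyp3a59 also rose, at 159 ± 35.1 against 26.3 ± 6.05 CPM (edgeR adjusted p = 1.92e-05). For these 4 genes the lowest DKO liver was above the highest control.

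Of 27 hepatocyte transporters 14 fell and 3 rose. Slc10a1, the sodium-driven bile acid importer, was 1.78-fold lower (edgeR adjusted p = 0.00114). Among exporters, Abcc3 was 5.84-fold lower and Abcc4 6.76-fold higher (edgeR adjusted p = 2.28e-05 and 0.000218). Slc51b, a subunit of the basolateral bile acid exporter, rose from 0.336, 0.477, 0.224 and 0.252 CPM to 5.34, 5.58, 7.71 and 11.9 CPM (edgeR adjusted p = 2.87e-05). Abcb11, the canalicular bile salt pump, did not pass (log2 fold change 0.26, standard error 0.25, edgeR adjusted p = 0.443) and its groups overlapped.

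Some genes of carbohydrate metabolism rose and others fell. Slc2a2, the glucose transporter GLUT2, stood at 179, 173, 178 and 157 CPM in the DKO livers and 523, 421, 484 and 311 CPM in the controls (log2 fold change -1.34, standard error 0.17, edgeR adjusted p = 0.000201), and Khk, which phosphorylates fructose, at 35.97, 39.4, 86.6 and 45.8 CPM in the DKO livers and 381, 192, 265 and 306 CPM in the controls (log2 fold change -2.46, standard error 0.32, edgeR adjusted p = 0.000443). Neither gene overlapped between groups. Pkm, the pyruvate kinase of fetal and proliferating cells, rose from 13.2, 13.4, 10.1 and 8.58 CPM to 37.3, 35.4, 36.1 and 28.3 CPM (edgeR adjusted p = 6.63e-05). Over the list 6 of 27 glycolysis genes rose (3 without WT-7067) and 7 fell. These shares of 22.2% and 25.9% compare with 19.2% and 16.6% of all genes. Gys2, liver glycogen synthase, and Pygl, liver glycogen phosphorylase, were 4.40-fold lower and 2.67-fold lower (edgeR adjusted p = 0.000103 and 0.000417). G6pc, which releases free glucose, stood at 95.3, 95.9, 119 and 615 CPM in the DKO livers and 706, 686, 528 and 597 CPM in the controls. DKO-7137 was inside the control range while the other 3 DKO livers were far below it, and the gene did not pass (edgeR adjusted p = 0.119).

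Single desaturase and elongase genes changed. Scd2, the stearoyl-CoA desaturase of brain and fetal liver, stood at 508, 311, 509.8 and 1032 CPM in the DKO livers and 22.2, 12.03, 18.4 and 15.3 CPM in the controls, without overlap (log2 fold change 5.12, standard error 0.41, edgeR adjusted p = 3.31e-05). Scd1, the adult liver isoform, stood at 2343, 2580.1, 10895 and 5046 CPM in the DKO livers and 38778, 4340.1, 15919.5 and 8296 CPM in the controls, with overlap and no call (edgeR adjusted p = 0.12). Elovl7 rose from 0.112, 1.05, 0.449 and 0.252 CPM to 12.9, 12.32, 13.2 and 14.5 CPM (edgeR adjusted p = 1.49e-05). Fads1, a desaturase for polyunsaturated fatty acids, was 2.02-fold lower (edgeR adjusted p = 0.00459). Of 27 lipid droplet and uptake genes 10 fell (6 with library totals) and 4 rose. Dgat2, the last enzyme of triglyceride synthesis, was 3.69-fold lower, and Mgll, which cleaves monoglycerides, 3.61-fold lower (edgeR adjusted p = 4.09e-05 and 2.52e-05). Cd36, the fatty acid translocase, stood at 52.9, 45.8, 123 and 73.0 CPM in the DKO livers and 27.3, 22.9, 28.4 and 25.7 CPM in the controls, all DKO livers being higher (edgeR adjusted p = 0.00382).

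Cholesterol synthesis genes mostly did not pass: none of 23 rose and 3 fell (Sc5d, Stard4 and Tm7sf2), with 7 falling without DKO-7112. Retinoid genes changed in both directions, 10 of 19 falling and 4 rising. Rdh16, a retinol dehydrogenase, stood at 2.22, 7.47, 10.1 and 4.35 CPM in the DKO livers and 156, 74.2, 116 and 83.2 CPM in the controls (log2 fold change -4.16, standard error 0.46, edgeR adjusted p = 0.000286), far apart. Cyp26b1, which degrades retinoic acid, stood at 0, 0.3599, 1.52 and 0.207 CPM in the DKO livers and 23.96, 6.21, 9.09 and 21.2 CPM in the controls (edgeR adjusted p = 0.00192).

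Among the large housekeeping machines, most respiratory chain genes fell, while most genes of both kinds of ribosome and of the proteasome did not pass the test. Of 76 nuclear-encoded respiratory chain genes 62 fell and none rose, at a median log2 fold change of -0.53. With library totals 37 fell and the median was -0.35. Ndufa6, a subunit of complex I, stood at 29.2, 29.4, 30.8 and 35.0 CPM in the DKO livers and 62.2, 56.2, 62.7 and 58.2 CPM in the controls (log2 fold change -0.94, standard error 0.10, edgeR adjusted p = 7.6e-05), every DKO liver below every control. Of 78 cytosolic ribosomal protein genes 5 rose and none fell (22 and none with library totals), at a median of 0.06. Without DKO-7068, WT-7067 or WT-7114 the number that rose was 2, 3 and 2. Mitochondrial ribosomal protein genes had 3 of 76 higher and 11 lower; their median was -0.07, or 0.10 with library totals, where 1 fell. Proteasome subunit genes had 5 higher and 2 lower of 43, and 1 to 3 higher when DKO-7068, DKO-7070 or any control was left out. These differences between lists were not tested against each other.

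Genes of the endoplasmic reticulum stress response barely moved, with 1 of 27 higher (Asns) and 2 lower (Atf6 and Edem1, the latter not without DKO-7068, DKO-7070 or WT-7069, at adjusted p from 0.0515 to 0.0526). Hspa5, the main chaperone there, stood at 883 ± 369.5 against 715 ± 297 CPM (edgeR adjusted p = 0.536). Lysosomal genes split, 12 of 32 rising and 6 falling, with 1 falling under library totals and 3 without DKO-7068. Ctsl, the protease cathepsin L, stood at 1155, 970.2, 967 and 1148 CPM in the DKO livers and 274, 247, 277 and 332 CPM in the controls (log2 fold change 1.91, standard error 0.15, edgeR adjusted p = 1.46e-05), every DKO liver above every control. Ctsb and Ctss, other cathepsins, were 1.56-fold higher and 2.71-fold higher (edgeR adjusted p = 0.00238 and 6.77e-05).

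**Figure D3:**
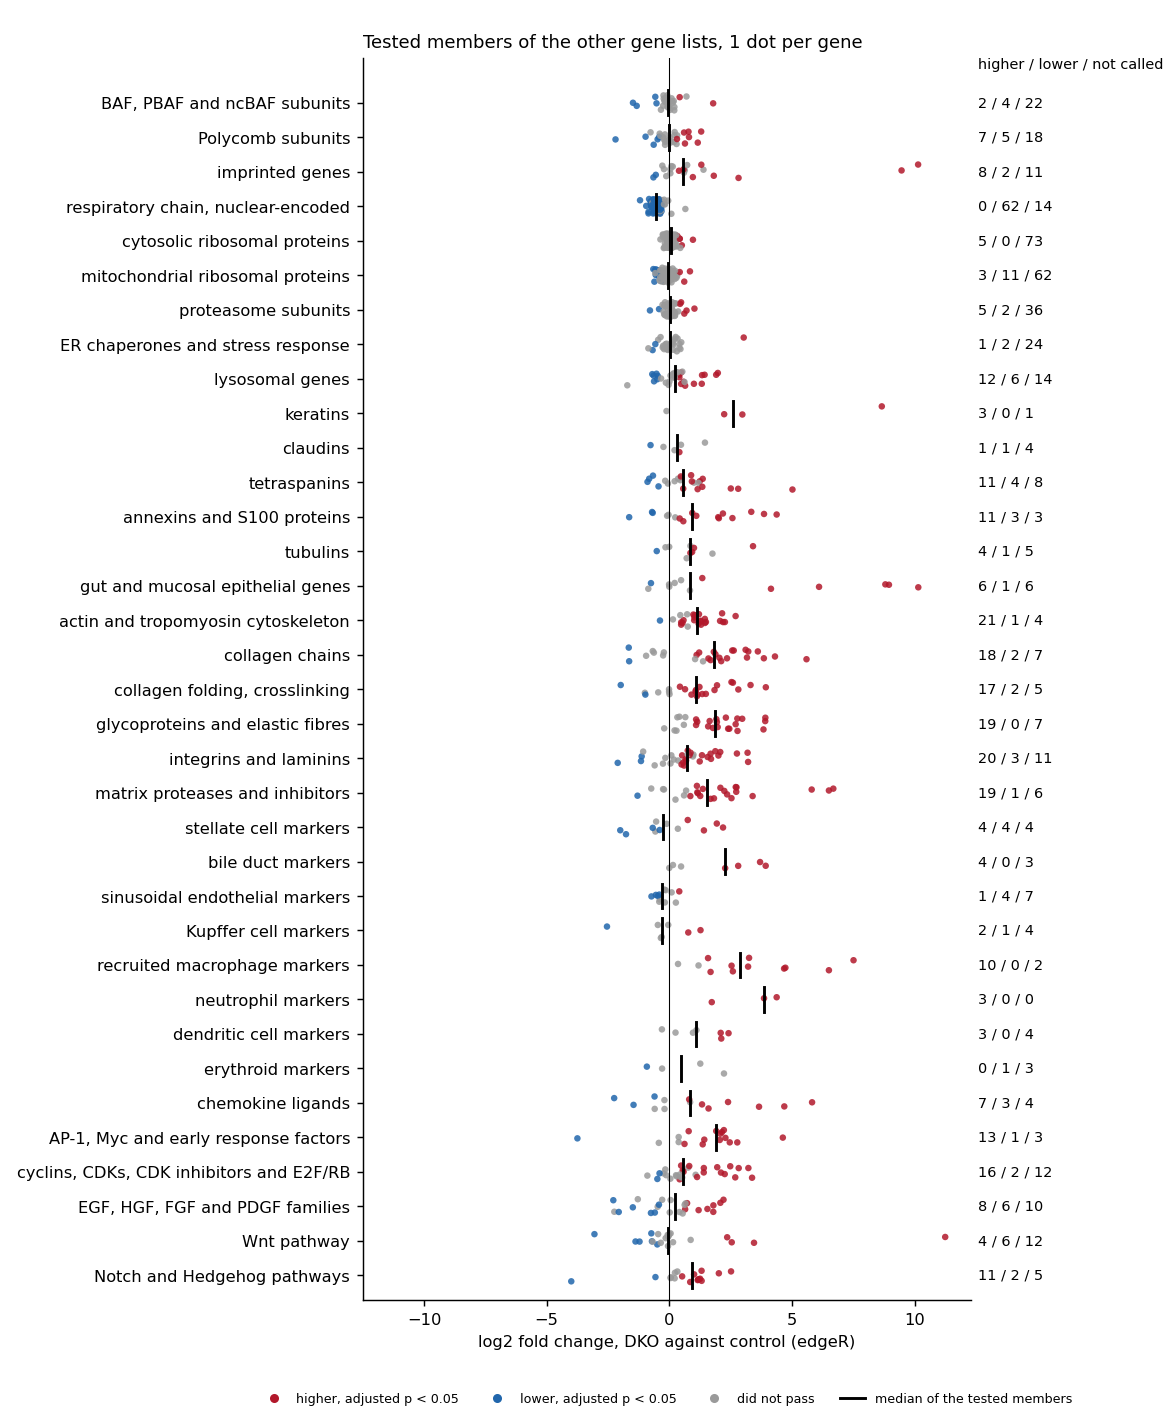
Log2 fold change (horizontal axis, DKO against control, edgeR) of each tested member of the chromatin, machinery, epithelial, matrix, cell type and signalling lists, with 1 list a row, 1 dot a gene coloured by its call, and a black bar at the list's median. The respiratory chain row lies to the left of 0 (median -0.53) and the cytosolic ribosomal row at 0.06, while the collagen chain and recruited macrophage rows lie to the right, at 1.81 and 2.90.

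Several lists of epithelial and cytoskeletal genes had more increases than decreases, while claudins had 1 of 6 higher and 1 lower. The simple epithelial keratins that hepatocytes and duct cells share went up in every DKO liver, Krt8 to 399, 383, 328 and 382 CPM from 91.9, 55.1, 73.7 and 96.4 CPM and Krt18 to 558, 540.4, 524 and 601 CPM from 69.7, 44.9, 78.2 and 90.1 CPM. They were 4.70-fold higher and 7.86-fold higher (edgeR adjusted p = 1.76e-05 and 7.17e-06). The duct keratin Krt19 stood at 4.52, 3.51, 0.977 and 0.622 CPM in the DKO livers and 1.01, 0.573, 0.224 and 1.39 CPM in the controls and Krt7 at 1.15, 1.08, 0.543 and 0.725 CPM in the DKO livers and 0.672, 1.05, 0.449 and 0.883 CPM in the controls; both were too low to be tested and overlapped between groups. Tetraspanins, which organise membrane domains, rose in 11 of 23 cases and fell in 4. Cd63, of late endosomes and exosomes, stood at 102, 82.5, 90.1 and 106 CPM in the DKO livers and 4.37, 2.58, 2.58 and 2.15 CPM in the controls and was 32.6-fold higher (log2 fold change 5.02, standard error 0.20, edgeR adjusted p = 3.63e-07), with every DKO liver far above the controls. Tm4sf4, a relative found in liver and gut, was 5.68-fold higher (edgeR adjusted p = 2.31e-06).

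Annexins and S100 proteins, which bind membranes and calcium, rose in 11 of 17 and fell in 3. Anxa2 stood at 18.2, 21.6, 41.2 and 22.3 CPM in the DKO livers and 9.63, 5.44, 5.27 and 5.55 CPM in the controls, with DKO-7112 the highest and no overlap (log2 fold change 1.99, standard error 0.30, edgeR adjusted p = 0.000826). S100a6 rose from 0.784, 0.668, 0.561 and 0.379 CPM to 5.83, 7.29, 6.95 and 4.87 CPM (edgeR adjusted p = 2.05e-05). Of 26 actin cytoskeleton genes 21 rose and 1 fell. Actg1, the cytoplasmic gamma-actin, stood at 179.8, 204, 116 and 99.8 CPM in the DKO livers and 50.6, 23.3, 24.2 and 45.2 CPM in the controls (edgeR adjusted p = 0.00167), and Capg, which caps actin filaments, at 7.38 ± 1.84 against 1.12 ± 0.377 CPM (edgeR adjusted p = 9.26e-05). In the list of gut and mucosal epithelial genes 6 of 13 rose and 1 fell, and 17 more were too low to be tested. The summed level of the list did not rise alike, at 788, 763, 2052 and 1287 CPM in the DKO livers. In the controls it was 1342, 1572, 1374 and 1528 CPM, so only DKO-7112 was above them. Elf3, an epithelial ETS factor, stood at 3.37, 2.97, 16.5 and 5.60 CPM in the DKO livers and 0.336, 0.382, 0.449 and 0.379 CPM in the controls with DKO-7112 the highest, and was 18.4-fold higher, or 10.3-fold without DKO-7112 (edgeR adjusted p = 0.0016).

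Extracellular matrix genes rose as a large block. Collagen chains rose in 18 of 27 cases and fell in 2 (Col13a1 and Col27a1), at a median of 1.81. Col1a1, the chain of fibrillar type I collagen, stood at 515, 722, 505 and 495 CPM in the DKO livers and 46.2, 28.9, 21.7 and 16.2 CPM in the controls, Col3a1, of type III, at 742, 1118, 751 and 730.2 CPM in the DKO livers and 147, 86.9, 66.6 and 58.3 CPM in the controls, and Col4a1, of basement membranes, at 269, 304, 267 and 277 CPM in the DKO livers and 62.2, 56.8, 53.3 and 46.6 CPM in the controls. DKO-7070 was the highest for each, and no DKO liver overlapped the controls. They were 19.8-fold higher, 9.30-fold higher and 5.10-fold higher (edgeR adjusted p = 1.92e-05, 5.83e-05 and 2.31e-06). Enzymes that fold and crosslink collagen rose in 17 of 24 and fell in 2. Lox and Loxl1, lysyl oxidases, were 15.02-fold higher and 10.1-fold higher, and Serpinh1, the collagen chaperone, 3.58-fold higher (edgeR adjusted p = 2.92e-05, 4.01e-05 and 2.51e-06). Tgm2, a transglutaminase that hepatocytes also make, rose to 461, 448, 1063 and 875 CPM from 93.9, 80.9, 106 and 124 CPM (edgeR adjusted p = 0.000126).

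Of 26 glycoproteins, proteoglycans and elastic fibre genes 19 rose and none fell. Tnc, tenascin C, stood at 19.1, 33.02, 36.5 and 20.9 CPM in the DKO livers and 3.02, 0.955, 2.02 and 1.26 CPM in the controls (log2 fold change 3.91, standard error 0.35, edgeR adjusted p = 5.03e-05), Eln, elastin, at 24.9 ± 13.2 against 3.85 ± 1.30 CPM (edgeR adjusted p = 0.00164) and Lum, lumican, at 48.8 ± 9.47 against 7.16 ± 2.08 CPM (edgeR adjusted p = 1.76e-05). Fn1, fibronectin, which hepatocytes secrete in bulk, was 2.13-fold higher (edgeR adjusted p = 0.00137). Matrix proteases and their inhibitors rose in 19 of 26 and fell in 1, Mmp15, whose call was lost under 5 alternatives, among them library totals and leaving out DKO-7112, WT-7114 or WT-7139 (adjusted p from 0.0591 to 0.0931). Mmp12, the macrophage elastase, stood at 25.9, 24.6, 11.8 and 22.1 CPM in the DKO livers and 0.336, 0.286, 0.112 and 0.126 CPM in the controls, and Timp1, a protease inhibitor induced in fibrosis, at 5.17, 4.23, 7.60 and 4.35 CPM in the DKO livers and 0.224, 0, 0.112 and 0 CPM in the controls. Both were near the detection limit in every control (edgeR adjusted p = 3.14e-06 and 4.09e-05). They passed the count filter through their DKO level alone, so a fall could hardly have been called. Integrins and laminins, cell receptors for matrix and their ligands, rose in 20 of 34 and fell in 3. Itgax, an integrin of dendritic cells and macrophages, was 9.30-fold higher (edgeR adjusted p = 1.92e-05), while Itgav, which activates latent TGF-beta, did not pass (log2 fold change 0.08, standard error 0.10, edgeR adjusted p = 0.579).

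Markers of the cells that make matrix moved unevenly alongside. Of 12 stellate cell markers 4 rose and 4 fell, with 2 falling under library totals; their summed level was 322 to 527 CPM in the DKO livers and 388 to 486 CPM in the controls. Pdgfrb, the receptor that drives stellate cell growth, stood at 55.4, 58.1, 63.3 and 56.5 CPM in the DKO livers and 14.1, 14.03, 14.9 and 18.04 CPM in the controls (log2 fold change 1.93, standard error 0.11, edgeR adjusted p = 3.02e-06), and Acta2, the actin of myofibroblasts, rose to 7.64, 8.91, 6.95 and 14.1 CPM from 2.02, 1.34, 1.57 and 3.41 CPM (edgeR adjusted p = 0.000632). Lrat and Ecm1, markers of quiescent stellate cells, were 3.41-fold lower and 4.01-fold lower (edgeR adjusted p = 0.00383 and 1.59e-05). The part that a change in stellate cell number plays in the matrix values was not tested.

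Most recruited macrophage markers rose, while most Kupffer cell markers, of resident macrophages, did not pass the test. The lists were not tested against each other. Of 12 recruited macrophage markers 10 rose and none fell, at a median of 2.90; their summed level was 248 to 303 CPM in the DKO livers and 95.6 to 152 CPM in the controls. Cx3cr1, the fractalkine receptor, stood at 18.1, 23.03, 18.6 and 14.8 CPM in the DKO livers and 0.672, 0.859, 0.112 and 1.14 CPM in the controls, Trem2, a lipid-sensing receptor, at 7.97, 7.38, 3.80 and 4.46 CPM in the DKO livers and 0.224, 0.382, 0 and 0.252 CPM in the controls, and Gpnmb, of lipid-laden macrophages, at 33.01, 18.4, 6.51 and 11.2 CPM in the DKO livers and 0.112, 0.0955, 0 and 0.126 CPM in the controls. Each DKO liver was above each control (edgeR adjusted p = 9.84e-06, 8.88e-05 and 0.000179). Cx3cr1, Trem2 and Gpnmb were at 1.14 CPM or less in every control and passed the count filter through their DKO level alone. A fall of these genes could hardly have been called. Lgals3, galectin 3, was 5.81-fold higher (edgeR adjusted p = 2.28e-05). Of 7 Kupffer cell markers 2 rose and 1 fell (28.6% and 14.3%, near the 19.2% and 16.6% of all genes). Their summed level was 291 to 353 CPM in the DKO livers and 256 to 418 CPM in the controls. Marco, a scavenger receptor, and Cd5l, a secreted regulator of macrophages, were 2.43-fold higher and 1.71-fold higher (edgeR adjusted p = 0.00564 and 0.00947), calls lost in WT-7067, WT-7069, DKO-7068 and DKO-7070 alone (adjusted p = 0.1002 and 0.135). Clec4f, found in Kupffer cells alone, stood at 112, 79.3, 79.8 and 78.3 CPM in the DKO livers and 116, 156, 113 and 97.9 CPM in the controls and did not pass (edgeR adjusted p = 0.0503). Cd163, a hemoglobin scavenger receptor of resident macrophages, stood at 4.02, 0.900, 9.77 and 10.9 CPM in the DKO livers and 28.3, 48.5, 28.0 and 41.8 CPM in the controls, all DKO livers being lower (edgeR adjusted p = 0.0115).

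Lymphocyte markers were near the detection limit: Cd3e, of T cells, stood at 1.57 ± 0.965 against 0.688 ± 0.0952 CPM and Cd79a, of B cells, at 0.418 ± 0.169 against 0.386 ± 0.327 CPM, both too low to be tested. Of 8 neutrophil markers 3 were tested and rose, and 5 were too low to be tested. S100a8, a calcium-binding protein of granulocytes, stood at 1.48, 3.15, 12.48 and 3.11 CPM in the DKO livers and 0.336, 0.286, 0.337 and 0.379 CPM in the controls, highest in DKO-7112. It was 15.1-fold higher, or 7.71-fold without DKO-7112 (edgeR adjusted p = 0.00403). With every control at 0.379 CPM or less, S100a8 passed the count filter through its DKO level alone, so a fall could hardly have been called. Of 12 sinusoidal endothelial markers 1 rose and 4 fell, and none fell under library totals; 2 fell when DKO-7068, DKO-7112, WT-7067, WT-7069 or WT-7139 was left out. Of 7 tested bile duct markers 4 rose and none fell. Prom1, a progenitor and duct marker, stood at 28.0, 26.2, 42.8 and 30.5 CPM in the DKO livers and 3.25, 1.15, 2.13 and 3.41 CPM in the controls (log2 fold change 3.70, standard error 0.30, edgeR adjusted p = 2.06e-05), and Spp1, osteopontin, at 367, 242, 837 and 63.5 CPM in the DKO livers and 28.1, 21.002, 26.03 and 24.1 CPM in the controls, where DKO-7137 was lowest and DKO-7112 highest (15.2-fold higher, or 9.03-fold without DKO-7112; edgeR adjusted p = 0.00403). Epcam, which defines duct cells, stood at 2.61 ± 1.43 against 0.644 ± 0.436 CPM and, like Krt7 and Krt19, was not tested.

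Chemokine ligands rose in 7 of 14 cases and fell in 3. Cxcl1, which attracts neutrophils, stood at 12.2, 12.4, 48.3 and 37.5 CPM in the DKO livers and 0.448, 0, 0.561 and 1.01 CPM in the controls, Cxcl10, an interferon-induced attractant of T cells, at 17.9, 25.5, 15.3 and 14.7 CPM in the DKO livers and 4.59, 2.67, 3.59 and 3.15 CPM in the controls, and Cx3cl1, the ligand of Cx3cr1, at 14.04, 20.9, 13.8 and 12.95 CPM in the DKO livers and 1.57, 1.05, 1.46 and 0.757 CPM in the controls. Cxcl1 was highest in DKO-7112 and DKO-7137, and for all 3 genes the groups were apart (edgeR adjusted p = 0.00081, 5.07e-05 and 8.07e-06).

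**Figure D4:**
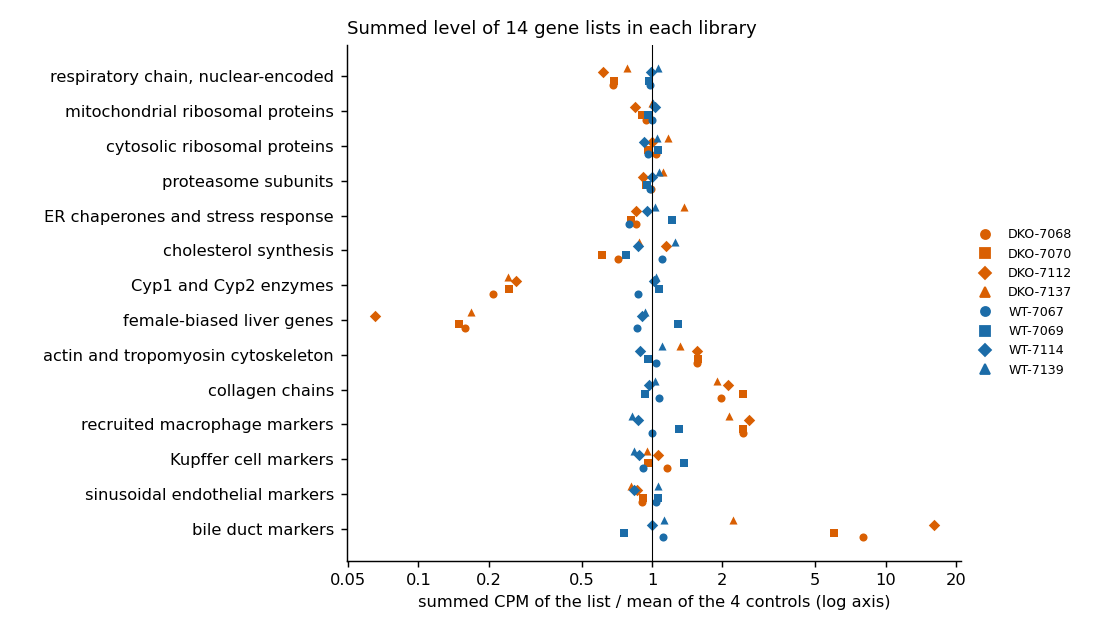
Summed CPM of 14 gene lists in each library divided by the mean of the 4 controls (horizontal log axis), with 1 list a row and 1 point per library, DKO in orange and controls in blue. The collagen and recruited macrophage rows are above all controls in the 4 DKO livers, the Cyp1 and Cyp2 and female-biased rows are below, and the ribosomal rows lie near 1.

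Early response factors, which growth factors and stress induce within minutes, were higher in DKO liver. Of 17 tested 13 rose and 1 fell (Mycn), at a median of 1.91. Egr1 stood at 34.7, 38.1, 61.4 and 93.8 CPM in the DKO livers and 4.14, 12.31, 5.83 and 10.98 CPM in the controls, Fos at 4.11, 3.96, 4.02 and 7.25 CPM in the DKO livers and 1.46, 0.477, 0.449 and 1.14 CPM in the controls and Jun at 57.8, 63.3, 57.1 and 62.9 CPM in the DKO livers and 22.1, 34.8, 14.2 and 22.6 CPM in the controls. All DKO livers were above all controls, with Egr1 and Fos highest in DKO-7137 (edgeR adjusted p = 0.00182, 0.000966 and 0.00114). Klf6, another early factor, was 4.67-fold higher (edgeR adjusted p = 6.2e-05). Myc stood at 64.8, 53.7, 17.7 and 29.1 CPM in the DKO livers and 5.26, 24.1, 5.83 and 3.41 CPM in the controls, with WT-7069 inside the DKO range, and was 4.29-fold higher, or 8.55-fold without WT-7069 (edgeR adjusted p = 0.0451). That call was lost without DKO-7068, WT-7067, WT-7114 or WT-7139 and under 4 other settings, at adjusted p from 0.0503 to 0.171.

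In a list of 30 cyclin, CDK, CDK inhibitor and E2F/RB genes that also held Trp53 and Mdm2, 16 rose and 2 fell. Trp53 and Mdm2 were among the 16. Ccna2, the S-phase cyclin, stood at 15.2, 12.2, 5.86 and 10.98 CPM in the DKO livers and 1.57, 1.24, 1.57 and 1.89 CPM in the controls (log2 fold change 2.83, standard error 0.31, edgeR adjusted p = 9.26e-05), and the mitotic genes Ccnb2 and Cdk1 at 4.68, 5.67, 5.54 and 4.97 CPM in the DKO livers and 1.90, 1.72, 0.785 and 0.883 CPM in the controls and at 9.44, 7.47, 4.12 and 5.60 CPM in the DKO livers and 1.68, 2.1002, 1.79 and 0.505 CPM in the controls. Levels were low, DKO-7112 had the least Ccna2 and Cdk1 of the DKO livers, and no group overlapped. Ccnb1, Ccnb2 and Cdk1 were 11.03-fold higher, 3.94-fold higher and 4.38-fold higher (edgeR adjusted p = 0.00148, 0.000632 and 0.00171), Ccnb1 being 17.4-fold without WT-7114. Cdkn1a (p21), an inhibitor of the cycle, stood at 113, 73.4, 62.8 and 135 CPM in the DKO livers and 12.2, 6.78, 6.84 and 34.6 CPM in the controls, with no overlap, and was 6.37-fold higher, or 11.2-fold without WT-7139 (edgeR adjusted p = 0.0081). Ccnd1, the growth-factor-induced cyclin, stood at 348, 342, 166 and 202 CPM in the DKO livers and 156, 123, 189.6 and 34.4 CPM in the controls and did not pass (edgeR adjusted p = 0.123).

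Promoters of the 3 mitotic genes that rose together are shown for the elements known from cell-cycle genes, the 250 bases before the start from RefSeq (GRCm38.p6, minus strand; chr13:100786487-100786736, chr9:70421555-70421804 and chr10:69352913-69353162). Capitals mark CCAAT on either strand and the cell cycle homology region core TTTGAA or its variant TTTAAA, each searched on both strands:
Ccnb1: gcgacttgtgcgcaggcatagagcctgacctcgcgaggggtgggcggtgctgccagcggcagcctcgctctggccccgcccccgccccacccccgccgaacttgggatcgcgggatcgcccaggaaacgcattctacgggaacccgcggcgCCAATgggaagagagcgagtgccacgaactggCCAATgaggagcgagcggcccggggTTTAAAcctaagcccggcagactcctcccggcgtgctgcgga
Ccnb2: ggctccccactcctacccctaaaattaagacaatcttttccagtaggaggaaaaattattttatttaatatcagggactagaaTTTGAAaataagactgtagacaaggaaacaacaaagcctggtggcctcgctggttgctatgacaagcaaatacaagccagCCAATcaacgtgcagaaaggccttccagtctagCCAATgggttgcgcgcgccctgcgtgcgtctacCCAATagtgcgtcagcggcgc
Cdk1: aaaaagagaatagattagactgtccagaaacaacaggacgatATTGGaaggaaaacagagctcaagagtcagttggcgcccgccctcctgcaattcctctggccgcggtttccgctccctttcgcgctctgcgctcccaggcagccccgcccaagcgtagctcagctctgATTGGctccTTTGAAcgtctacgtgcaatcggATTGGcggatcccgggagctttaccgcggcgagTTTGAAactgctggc
Of the 16 genes of the cell-cycle list that rose, Trp53 and Mdm2 included, 14 have a window. Of those 9 (64.3%), again with Trp53 and Mdm2, hold CCAAT, against 37.5% of all 27025 genes with a window. Of 7 with a window among those not called, 4 (57.1%) hold it. TTTGAA occurs in 4 of the 14 and in 18.3% of all genes, and TTTAAA in 3 of the 14 and in 13.7%. These are matches of letters, with no test of the difference.

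Among growth factor genes, Fgf1 and Fgfr3, a fibroblast growth factor and a receptor, were 4.18-fold lower and 4.93-fold lower (edgeR adjusted p = 2.31e-06 and 0.000676). Of 24 EGF, HGF, FGF and PDGF family genes 8 rose and 6 fell (33.3% and 25.0%, against 19.2% and 16.6% of all genes). Under library totals 3 fell. Met, the HGF receptor, was just outside the threshold (log2 fold change -0.48, standard error 0.17, edgeR adjusted p = 0.0517). In the Wnt list 4 of 22 rose and 6 fell (18.2% and 27.3%, against 19.2% and 16.6% of all genes); the fallers numbered 2 under library totals and 3 without DKO-7070 or without WT-7114. Notum, a secreted enzyme that inactivates Wnt ligands and a target of the pathway in pericentral hepatocytes, stood at 6.82, 6.57, 4.23 and 6.01 CPM in the DKO livers and 46.6, 41.6, 63.7 and 45.7 CPM in the controls (log2 fold change -3.05, standard error 0.19, edgeR adjusted p = 3.52e-06), far lower in every DKO liver. Dkk3 rose from 2.35, 2.48, 2.47 and 1.77 CPM to 12.1, 18.9, 12.48 and 9.84 CPM (edgeR adjusted p = 4.09e-05). The pathway targets Axin2 and Lgr5 did not pass, at 10.96 ± 4.40 against 11.4 ± 4.45 CPM and 7.49 ± 0.689 against 7.70 ± 3.63 CPM (edgeR adjusted p = 0.925 and 0.934), and their sign depended on the setting.

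Notch and Hedgehog genes rose in 11 of 18 cases and fell in 2 (Notch1 and Hhip, the former not with library totals, at adjusted p = 0.069). Smo, the Hedgehog signal transducer, stood at 31.0, 29.9, 24.9 and 25.7 CPM in the DKO livers and 6.72, 4.68, 8.19 and 8.08 CPM in the controls, without overlap (log2 fold change 2.02, standard error 0.18, edgeR adjusted p = 2.92e-05). Notch2, the receptor that directs duct formation, was 1.44-fold higher, and Notch3, of mural cells, 2.49-fold higher (edgeR adjusted p = 0.00391 and 0.000297). Hhip, the antagonist that binds Hedgehog ligands, stood at 0.493, 0.810, 0 and 0 CPM in the DKO livers and 3.02, 8.78, 6.73 and 4.42 CPM in the controls, lower in each DKO liver; it was 17.6-fold lower, or 34.9-fold without DKO-7070 (edgeR adjusted p = 0.00166).

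Several of the genes with the largest spread among the DKO livers were acute-phase genes, which hepatocytes induce under interleukin 6. Saa2, serum amyloid A, stood at 17.6, 25.0, 834 and 483 CPM in the DKO livers and 10.1, 5.25, 8.19 and 4.92 CPM in the controls, Lcn2, lipocalin 2, at 126, 98.2, 1795 and 1118 CPM in the DKO livers and 11.98, 21.7, 11.9 and 36.3 CPM in the controls, and Orm2, an orosomucoid, at 62.6, 101, 2267 and 666 CPM in the DKO livers and 7.73, 8.31, 8.97 and 9.84 CPM in the controls. DKO-7112 and DKO-7137 were high for all 3, DKO-7068 and DKO-7070 were nearer the controls, and every DKO liver was still above every control. Lcn2 was 38.3-fold higher, or 21.8-fold without DKO-7112, and Orm2 was 88.9-fold higher, or 31.7-fold without DKO-7112 (edgeR adjusted p = 0.0078 and 0.00573). Orm1 stood at 57.6, 57.5, 1662 and 614 CPM in the DKO livers and 381, 377, 367 and 381 CPM in the controls, so 2 DKO livers were below all controls and 2 above (edgeR adjusted p = 0.644). Mup20 was likewise on both sides, at 0.985, 14.8, 46.9 and 0.311 CPM in the DKO livers and 4.48, 6.11, 10.3 and 9.84 CPM in the controls. Over all tested genes 1 measure of spread was alike: the median SD of log2 CPM was 0.231 in DKO livers and 0.232 in controls, and 50.1% of genes were more variable in DKO. Another was larger in DKO: the common biological coefficient of variation, the spread beyond counting error, was 0.228 against 0.197 in controls. Pairs of controls had dispersions of 0.0267 to 0.0531. The DKO pairs had 0.0447 to 0.0662, apart from DKO-7068 with DKO-7070 at 0.0145.

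**Figure D5:**
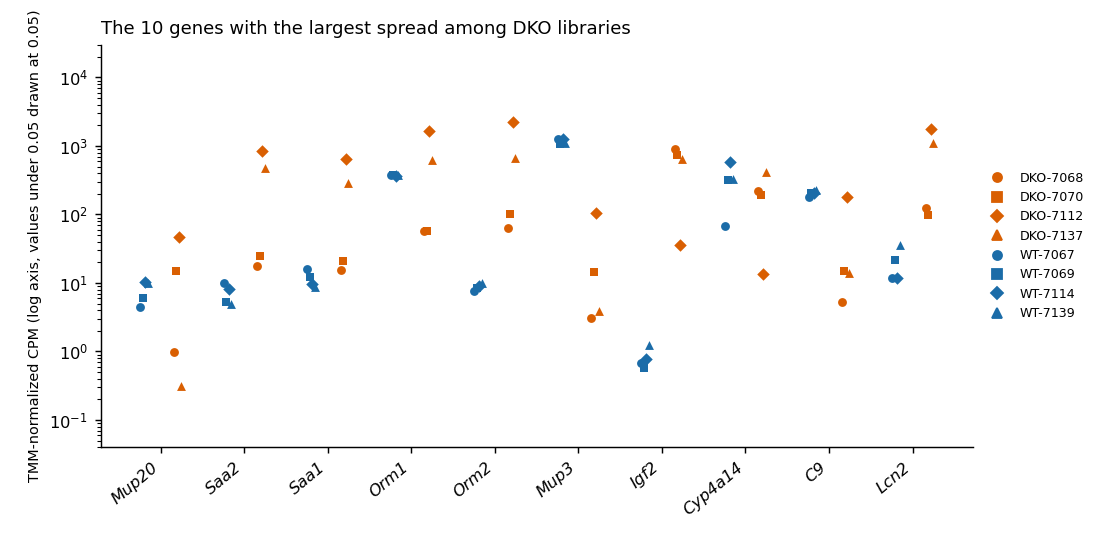
Level (TMM-normalized CPM, log axis) of the 10 genes with the largest spread among DKO libraries, with 1 point per library, DKO in orange and controls in blue. Saa2, Saa1, Orm1, Orm2 and Lcn2 are highest in DKO-7112 and DKO-7137, and Igf2 is lowest in DKO-7112 among the DKO livers.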

How the data were processed

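RNA from whole liver was extracted with TRIzol and RNeasy columns, and libraries were made with NuGEN Ovation kits, per the labels' protocols. The authors deposited raw counts per gene for all 8 libraries in 1 table. Per the submitters' processing notes the tools were featureCounts 1.6.2, HISAT2 2.1.0 and Trim Galore 0.4.1, and builds GRCm38, mm10 and GRCh38 are listed without a role. The annotation, strand setting and treatment of reads shared between gene copies are not stated in any label or header. Of 321 named genes, 110 have exons that overlap another gene in GENCODE M21 (GRCm38), 95 of them on the other strand, and their reads cannot be assigned with certainty.

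Counts were tested with edgeR 4.0.16 in R 4.3.3 (filterByExpr, TMM scaling, quasi-likelihood fit with robust dispersion, Benjamini-Hochberg adjustment over all tested genes at 0.05). Standard errors were derived from the fold change and the F statistic. The albumin share was compared by a two-sided exact permutation test over 70 regroupings. Named genes are Arid1a and Arid1b, the 12 largest changes in each direction among called genes that did not overlap between groups and had a mean log2 CPM of 3 or more, up to 2 called members per list and direction by smallest p, the 10 genes with the largest spread, and a set of landmark genes; other list members with values were chosen after their values were seen. Some genes of this rule are not reported here. Members and lists were chosen with earlier results of these data known. Promoters come from RefSeq (GRCm38.p6). Alternatives covered scaling, filters, DESeq2 1.42.0, limma 3.58.1, tag sets and leaving out each library; the fits with 3 tag sets, with 4 pairs of neighbouring tags as a block and within WT-7067, WT-7069, DKO-7068 and DKO-7070 were added after seeing the data. The script was tested on simulated data. The count depth limits low genes, and 3 counts over a group was taken as the floor where a group had none. This floor covers counting error only. Genes scarce in every control passed the count filter through their DKO level, so a fall of them could hardly have been called. The reverse holds for genes scarce in every DKO liver.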

Additional observations from a re-analysis of the deposited data

Results flagged for a closer look

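Among the named genes, 1 liver stood clear of the other 3 of its group in 44 groups of values: its gap to the nearest other liver, over the whole range of the group, was above Dixon's critical value for 4 livers. The named genes give 642 groups, but those with under 20 counts in sum or no spread were passed over and not counted. For normally distributed values chance gives about 1 in 20 groups tested, which is 32.1 for all 642 and fewer for those tested. The values here are CPM without a log scale, and some genes were named for their spread or after their values were seen. That rate is therefore a rough guide only, and single cases carry little weight. Each is given with the range of the other 3 livers of its group.

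DKO-7068 was above the other DKO livers for Clec4f at 112 CPM (78.3 to 79.8). DKO-7070 was above the other DKO livers for Cyp2a4 at 29.7 CPM (6.53 to 7.64), S100a13 at 4.14 CPM (2.38 to 2.63) and Cx3cl1 at 20.9 CPM (12.95 to 14.04). In DKO-7070 the same held for Col1a1 at 722 CPM (495 to 515) and Col3a1 at 1118 CPM (730.2 to 751). DKO-7112 was above the other DKO livers for Ly6d at 64.4 CPM (3.86 to 6.42), Dnah1 at 47.5 CPM (12.59 to 18.2) and Zbtb20 at 104 CPM (92.6 to 93.6). In DKO-7112 the same held for Tmprss6 at 284 CPM (179 to 193), S100a8 at 12.48 CPM (1.48 to 3.15) and Mup3 at 103 CPM (3.12 to 14.4). In DKO-7112 the same held for C9 at 181 CPM (5.26 to 14.8). DKO-7112 was below the other DKO livers for Smarcb1 at 17.8 CPM (19.6 to 19.96), Tubb6 at 14.98 CPM (20.4 to 21.1) and Gsta1 at 4.34 CPM (9.53 to 10.4). DKO-7137 was above the other DKO livers for Cyp2c69 at 28.7 CPM (1.74 to 5.13), Nr4a1 at 13.1 CPM (3.47 to 4.93) and Kng1 at 4464 CPM (2953 to 3177). In DKO-7137 the same held for Igfbp6 at 43.6 CPM (10.7 to 14.3), Cyp3a13 at 919 CPM (376 to 462) and Ces2a at 364 CPM (204 to 226). In DKO-7137 the same held for Klf6 at 106 CPM (55.5 to 61.9), G6pc at 615 CPM (95.3 to 119) and Igfbp1 at 1063 CPM (116 to 203). In DKO-7137 the same held for Fos at 7.25 CPM (3.96 to 4.11) and Npas2 at 7.05 CPM (0.540 to 1.23).

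WT-7067 was above the other controls for Siglech at 1.01 CPM (0.561 to 0.631) and Anxa2 at 9.63 CPM (5.27 to 5.55). WT-7069 was above the other controls for Igfbp6 at 1.62 CPM (0.224 to 0.379), Itgb2 at 11.2 CPM (7.63 to 8.20) and Myc at 24.1 CPM (3.41 to 5.83). WT-7069 was below the other controls for Mup21 at 1.53 CPM (3.15 to 3.37). WT-7114 was above the other controls for Gsta4 at 35.4 CPM (28.3 to 29.4), Nr1i3 at 198 CPM (121 to 129.8) and Krt23 at 1.68 CPM (0.0955 to 0.252). In WT-7114 the same held for Lgr5 at 13.1 CPM (5.44 to 6.16) and Axin2 at 18.1 CPM (8.71 to 9.55). WT-7114 was below the other controls for Pdgfra at 7.29 CPM (12.7 to 13.7) and Lgals3 at 2.13 CPM (3.44 to 3.66). WT-7139 was above the other controls for Arntl at 42.3 CPM (1.57 to 5.44), Serpina1b at 3701 CPM (2936 to 3041) and Npas2 at 4.16 CPM (0.112 to 0.448). WT-7139 was below the other controls for Scarb2 at 126 CPM (137 to 138).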

How the results depend on the processing

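Over all alternatives that refit the genes, the number higher ran from 2048 to 3266 and the number lower from 1269 to 2459. Scaling to library totals gave that 1269; no other alternative moved a count of called genes by over 1.5 times. Leaving out 1 library in turn gave 2048 to 2489 genes higher and 1776 to 2283 lower, and gave Arid1b log2 fold changes of -0.75 to -0.46. The Arid1b call was lost with library totals (-0.39) and without DKO-7068 (-0.54). The albumin share differed by -3.99 to -3.09 percentage points with 1 library left out, where no p of 3 against 4 livers is given. Of 275 called named genes 52 lost the call under at least 1 alternative and none changed direction; the cause was not tested. The groups share no replicate number and the labels pair no livers. With the 4 pairs of neighbouring tags as a block 2615 genes were higher and 2262 lower. That fit also called C9, Ppara, G6pc, Clec4f and Met lower (edgeR adjusted p = 0.046, 0.0236, 0.0339, 0.0408 and 0.0113) and lost the calls of Saa1 and Saa2 (0.174 and 0.0751).

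The sign of 19 named genes changed under at least 1 alternative, none of them called with all 8 livers (values are log2 fold changes). With limma and voom, the sign changed for Mup20 -0.92, Orm1 -0.59, Onecut1 0.38 and Lgr5 0.068. With the tag range as a covariate, the sign changed for Orm1 -0.54 and Onecut1 0.24. With 3 tag sets as a covariate, the sign changed for Orm1 -0.69, Onecut1 0.25 and Lgr5 0.045. With neighbouring tags paired, the sign changed for Orm1 -0.69, Onecut1 0.36 and Lgr5 0.043. With WT-7067, DKO-7068, WT-7069 and DKO-7070 alone, the sign changed for Orm1 -2.74, Cyp4a14 0.066, Nr1i2 -0.099, Apoa4 -0.20, Abcb11 -0.021, Hspa5 -0.039, Lgr5 0.44, Axin2 0.61, Dbp 0.13 and Nr1d1 -0.039. With library totals, the sign changed for Foxa3 0.13, Onecut1 0.12, F2 0.085, Plg 0.12, Lgr5 0.15, Axin2 0.16, Dbp 0.036 and Serpina1b 0.10. With DKO-7068 and DKO-7070 summed, the sign changed for Plg 0.043. Leaving out 1 library in turn changed the sign for Mup20 -0.52 to 1.43, Orm1 -0.67 to 1.04, Hnf4a -0.30 to 0.0094, Foxa3 -0.21 to 0.10, Onecut1 -0.42 to 0.90, Nr1i2 -0.074 to 0.098, Apoa4 -0.22 to 0.45 and Plg -0.21 to 0.069. It did so too for Hspa5 -0.013 to 0.59, Lgr5 -0.18 to 0.34, Axin2 -0.33 to 0.25, Arntl -0.92 to 2.02, Dbp -0.72 to 0.60, Serpina1b -0.19 to 0.0058, Gapdh -0.29 to 0.44 and Nr1d1 -0.68 to 1.11.

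Few reads limit the precision of low genes. Near-identical gene copies, overlapping genes and the unstated strand setting limit single values within families, and the balance of rises and falls depends on the scaling. A call within WT-7067, WT-7069, DKO-7068 and DKO-7070 rests on 2 livers a group.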

Other observations

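Cyp4 enzymes, the omega-hydroxylases of fatty acids, fell in 8 of 12 cases and rose in 1. Cyp4v3 stood at 158, 174, 184 and 159 CPM in the DKO livers and 322, 372, 400.4 and 389.5 CPM in the controls and Cyp4f13 was 2.12-fold lower (edgeR adjusted p = 9.22e-05 and 0.000275). Flavin monooxygenases fell in 3 of 5 cases and none rose, with Fmo1 1.85-fold lower and Fmo2 2.33-fold lower (edgeR adjusted p = 0.000618 and 0.00132). Of 20 genes of gluconeogenesis and glycogen 7 fell and 3 rose (35.0% and 15.0%, against 16.6% and 19.2% of all genes). Pck2, the mitochondrial isoform, was 2.61-fold higher (edgeR adjusted p = 0.000526). Elongases and desaturases had 3 of 11 higher and 3 lower, and Cyp3a enzymes 2 of 7 higher and 2 lower. Igfbp1, a fasting-induced binding protein, stood at 116, 152, 203 and 1063 CPM in the DKO livers and 38.8, 92.5, 25.7 and 104 CPM in the controls, highest in DKO-7137, the liver that also had the most G6pc of the DKO group.

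Among structural genes, tubulins rose in 4 of 10 and fell in 1, with Tubb5 at 116 ± 21.1 against 60.9 ± 10.9 CPM and Tubb6 at 19.3 ± 2.92 against 9.67 ± 1.38 CPM (edgeR adjusted p = 0.00156 and 0.000869). Claudins of tight junctions had 1 of 6 higher and 1 lower, and Cldn12 was 1.70-fold lower (edgeR adjusted p = 0.00025). Of 52 keratin genes 48 were too low to be tested, and of the 4 tested 3 rose and none fell. Krt20, nearly absent from the controls, passed the count filter through its DKO level alone, so its fall could hardly have been called. Dendritic cell markers rose in 3 of 7, with Siglech, of plasmacytoid cells, at 3.73 ± 0.984 against 0.693 ± 0.212 CPM (edgeR adjusted p = 0.000341). Both tested B and plasma cell markers, 1 of 2 T and NK cell markers and none of 4 erythroid markers rose, and 1 erythroid marker fell. These 4 calls were fragile: Cd22 lost its call under 4 alternatives, Jchain under 8, Cd4 under 8 and the erythroid Klf1 under 9, at adjusted p from 0.0527 to 0.199. Npas2, a partner of the clock factors that was too low to be tested, stood at 1.23, 0.540, 0.651 and 7.05 CPM in the DKO livers and 0.448, 0.286, 0.112 and 4.16 CPM in the controls, highest in DKO-7137 and WT-7139.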
